A study of Arabidopsis thaliana with 9 samples.

Results

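The 10 genes described here encode proteins of the light-harvesting complexes of photosynthesis in Arabidopsis thaliana. They are CAB1, LHCB2.1, LHCB3, LHCB4.1, LHCB5, LHCB6, LHCA1, LHCA2, LHCA3 and LHCA4, chosen by name and gene identifier, and all 10 were found among the 33602 gene models of the deposited count files. RNA was taken from above-ground parts of plants at 21 days, ecotype Col0, raised without treatment on soil at 21 °C and 65% humidity under short days of 8 h light and 16 h dark. There were 3 libraries each of the genotypes CUC2gm-4, cuc2-3 and WT, named here by genotype and replicate number (CUC2gm-4 1 and so on). CUC2 is a NAC transcription factor of organ boundaries and leaf margins. The labels do not spell out the allele behind CUC2gm-4 or cuc2-3, nor whether plants were pooled or a library stands for separate plants, and p-values therefore describe the spread among these libraries alone, which may be technical.

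Light-harvesting proteins bind chlorophyll and carotenoids in the thylakoid membrane and pass the light energy they absorb to the photosystems. LHCB proteins serve photosystem II, where LHCB1, LHCB2 and LHCB3 form the major trimeric antenna and LHCB4, LHCB5 and LHCB6 are the minor, monomeric antenna proteins CP29, CP26 and CP24. LHCA proteins form the belt of photosystem I. All are made from nuclear genes, imported into the chloroplast and inserted into the membrane, and their messages are among the most abundant of a green leaf, rising and falling with light and the circadian clock.

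The libraries held 17361433 to 27734410 counts, with 92.2% to 96.6% of reads mapped. CUC2 itself had 779, 656 and 1062 counts in the libraries labelled CUC2gm-4, 38, 11 and 23 in cuc2-3, and 13, 53 and 55 in WT. The series text describes both mutants as knock-outs. CUC2 was higher in the libraries labelled CUC2gm-4 than in WT (log2 fold change 4.12), against that description. In cuc2-3 against WT CUC2 was at -0.95, where the libraries overlapped and the gene did not pass the threshold. Root and flower markers were low: 5 root markers summed to 0.900 to 1.54 normalised CPM in CUC2gm-4, 2.06 to 2.31 in cuc2-3 and 2.79 to 3.21 in WT. Most of that sum was WOX5, with 13 to 75 counts a library, and the other root markers had at most 5. WOX5 was at -1.45 in CUC2gm-4 against WT and did not pass the threshold. The 3 flower markers summed to at most 0.639 in any library. Normalised CPM are counts scaled to library size with edgeR's TMM factors. WT 1 stood apart in the meristem markers: the 4 summed to 3.61 there, against 31.3 and 32.0 in WT 2 and WT 3 and 22 to 47.2 in the libraries of both other genotypes. The main results are therefore given with and without WT 1.

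CAB1 (AT1G29930), a copy of LHCB1, lies on chromosome 1 of the TAIR10.1 reference, 10477885 to 10479114 on the plus strand, as a single exon. It stands beside its sister copies LHCB1.1 (10474656 to 10475969, minus strand) and LHCB1.2 (10472280 to 10473502, minus strand). The copies are so alike that the counting of reads depends on few bases. CAB1 differed from LHCB1.2 at 29 of 804 coding bases and from LHCB1.1 at 31. A stretch from coding base 10 to 84 is shown for the 3 copies because it holds 9 of their 47 variable positions, which are in capitals; the sequences are RefSeq's on TAIR10.1, written 5′ to 3′.
CAB1: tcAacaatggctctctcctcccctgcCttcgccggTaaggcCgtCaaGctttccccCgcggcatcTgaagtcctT
LHCB1.1: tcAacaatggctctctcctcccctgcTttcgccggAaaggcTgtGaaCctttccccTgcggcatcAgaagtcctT
LHCB1.2: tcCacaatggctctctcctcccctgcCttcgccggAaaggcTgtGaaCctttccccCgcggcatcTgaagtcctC
Of the 1131 windows of 100 bases along the CAB1 transcript, 37 (3.27%) occur unchanged in LHCB1.1. For LHCB2.1 against LHCB2.2, which are 96.6% identical over 798 coding bases, 129 of 1307 windows (9.87%) do. The authors removed reads with several best placements, so the levels of these 2 members are uncertain. The share of windows does not bound that uncertainty, because 100 bases was a chosen length and the aligner settings were not given. No such window of the other 8 members occurs in another light-harvesting gene.

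CAB1 was the most abundant gene of every library. Its counts made up 1.53% to 3.05% of a library. The CUC2gm-4 libraries held 18434, 14435 and 17969 normalised CPM of CAB1, the cuc2-3 libraries 23028, 22854 and 20604, and the WT libraries 34951, 18186 and 17279. WT 1 was thus 1.97 times the mean of WT 2 and WT 3, which lay within the CUC2gm-4 range, while all 3 cuc2-3 libraries lay above all 3 CUC2gm-4 libraries.

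LHCB2.1 (AT2G05100, chromosome 2, 1822990 to 1824480, minus strand, 2 exons) encodes LHCB2, the trimer subunit whose phosphorylation is known for moving antenna between the photosystems. It had 1630, 1210 and 2182 normalised CPM in CUC2gm-4, 2574, 1357 and 1812 in cuc2-3, and 2218, 1579 and 1455 in WT. The 3 genotypes overlapped fully, with the first cuc2-3 library highest. LHCB3 (AT5G54270, chromosome 5, 22038165 to 22039568, plus strand, 3 exons) encodes the remaining trimer subunit. Its levels were 3102, 2915 and 3751 normalised CPM in CUC2gm-4, 4216, 4239 and 4933 in cuc2-3, and 4491, 4012 and 4266 in WT. For LHCB3 every CUC2gm-4 library lay below the other 6.

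Among the minor antenna genes, LHCB4.1 (AT5G01530, chromosome 5, 208866 to 210548, plus strand, 2 exons) encodes a form of CP29. CUC2gm-4 held 3834, 2781 and 3700 normalised CPM, cuc2-3 5041, 4453 and 3695, and WT 7518, 3964 and 3468. WT 1 was 2.02 times the mean of WT 2 and WT 3, the largest such ratio of the 10 genes, and the genotypes overlapped. LHCB5 (AT4G10340, chromosome 4, 6408007 to 6409849, plus strand, 6 exons), the gene of CP26, had 3838, 3506 and 3523 normalised CPM in CUC2gm-4, 4873, 3909 and 4079 in cuc2-3, and 5052, 3974 and 4161 in WT. All 3 CUC2gm-4 libraries were below the other 6 for LHCB5, but by library totals CUC2gm-4 1 (0.391%) lay above cuc2-3 2 (0.385%). LHCB6 (AT1G15820, chromosome 1, 5446462 to 5447880, minus strand, 2 exons), the gene of CP24, had 2726, 3148 and 3017 normalised CPM in CUC2gm-4, 4097, 4047 and 3733 in cuc2-3, and 5159, 3039 and 3114 in WT. Here CUC2gm-4 lay below all of cuc2-3 but covered WT 2 and WT 3.

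The photosystem I antenna genes began with LHCA1 (AT3G54890, chromosome 3, 20339504 to 20341176, minus strand, 4 exons), whose protein pairs with LHCA4. LHCA1 had 3687, 2706 and 3288 normalised CPM in CUC2gm-4, 4821, 3129 and 3513 in cuc2-3, and 5654, 3256 and 3329 in WT, so the genotypes overlapped. LHCA4 (AT3G47470, chromosome 3, 17493343 to 17495033, minus strand, 4 exons) had 3689, 3083 and 4224 in CUC2gm-4, 4723, 4555 and 5728 in cuc2-3, and 5397, 4035 and 4485 in WT. Its CUC2gm-4 values lay below all of cuc2-3 and overlapped WT. LHCA2 (AT3G61470, chromosome 3, 22745514 to 22747444, plus strand, 4 exons), the partner of LHCA3 in the belt, had 2382, 1778 and 2337 normalised CPM in CUC2gm-4, 3015, 3059 and 2672 in cuc2-3, and 4306, 2580 and 2356 in WT. CUC2gm-4 again lay below cuc2-3 and overlapped WT through WT 3 alone. LHCA3 (AT1G61520, chromosome 1, 22699715 to 22701412, plus strand, 3 exons) had 3172, 2922 and 3155 in CUC2gm-4, 4245, 3227 and 3562 in cuc2-3, and 4669, 3471 and 3520 in WT. For LHCA3 all 3 CUC2gm-4 libraries were below the other 6. By library totals CUC2gm-4 1 (0.323%) and CUC2gm-4 3 (0.328%) lay above cuc2-3 2 (0.317%).

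**Figure D1:**
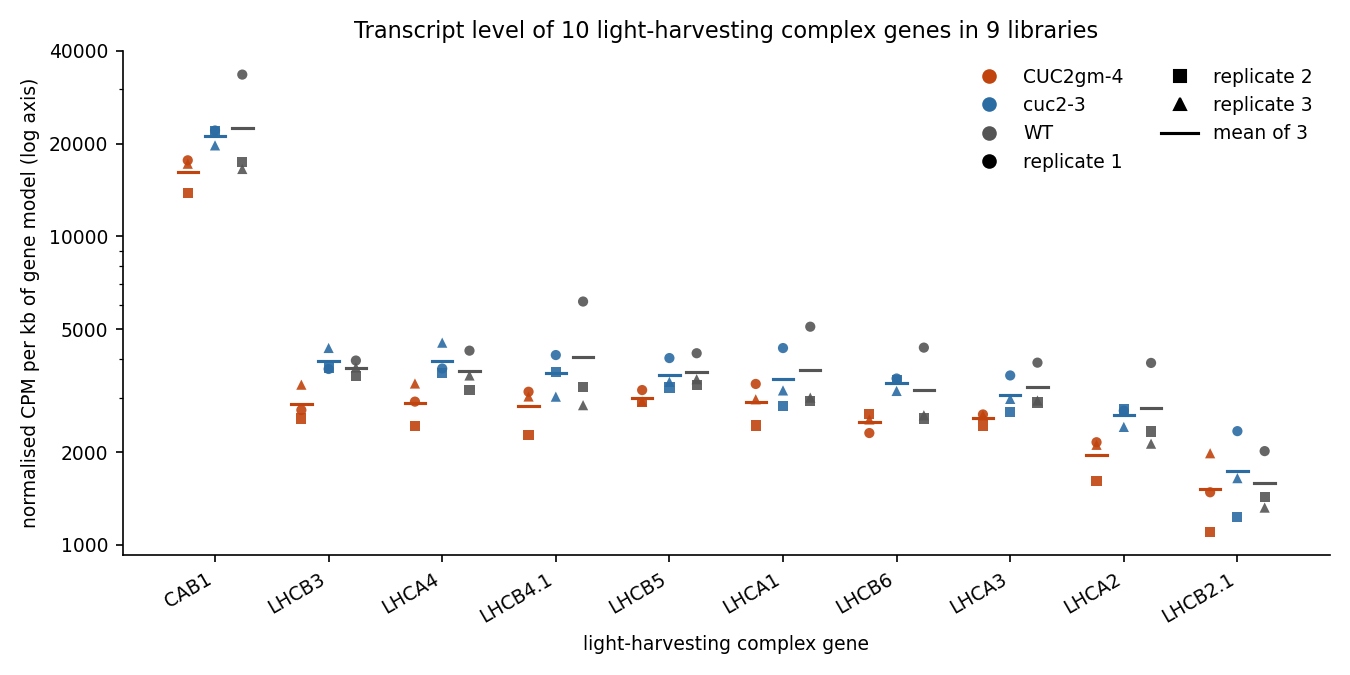
Level of the 10 light-harvesting genes in each library, in normalised CPM per kb of gene model on a log axis, ordered by mean level; colours are genotypes, marker shapes replicate numbers and short lines the mean of 3 libraries. CAB1 stands above all others, and the WT replicate 1 point is the highest of 9 for 7 genes.

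Levels of different genes were compared per kb of gene model. CAB1 averaged 19981 normalised CPM per kb over the 9 libraries, 5.68 times LHCB3, which came next at 3520. Behind CAB1 followed a close group: LHCB3, LHCA4 (3503), LHCB4.1 (3496), LHCB5 (3395) and LHCA1 (3345). The order within that group was not steady, since each gene was above the next in only 4 or 5 of 9 libraries. LHCA1 was above LHCB6 (3013) in 7 libraries, LHCB6 above LHCA3 (2963) in 4, and LHCA3 above LHCA2 (2458) in 8. LHCA2 was above LHCB2.1, the least abundant at 1616 per kb, in all 9. The lowest count of any member in any library was 24075, for which counting error alone is 0.644%, so the spread described here is far larger than counting noise.

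The 10 genes moved largely together from library to library. Each gene was centred on its own mean of log2 normalised CPM. The mean of the 10 was -0.16, -0.41 and -0.10 in CUC2gm-4 1 to 3, 0.26, 0.013 and 0.074 in cuc2-3 1 to 3, and 0.51, -0.087 and -0.10 in WT 1 to 3. All 10 genes were above their own mean in WT 1 and in cuc2-3 1, and 0 were in CUC2gm-4 2. WT 1 was the highest library for 7 genes, cuc2-3 3 for LHCB3 and LHCA4, and cuc2-3 1 for LHCB2.1. CUC2gm-4 2 was the lowest for 9, LHCB6 being lowest in CUC2gm-4 1. The coefficient of variation over 9 libraries ran from 13.1% for LHCB5 to 32.0% for LHCB4.1. WT 1 exceeded the mean of WT 2 and WT 3 by factors from 1.08 for LHCB3 to 2.02 for LHCB4.1. Its TMM factor was the lowest (0.873, against 0.955 to 1.06), which raises its normalised levels. By library totals CAB1 was at 3.05% in WT 1, 1.88% in WT 2 and 1.78% in WT 3. LHCB5 was then highest in cuc2-3 1 (0.465%), above WT 1 (0.441%). The part that the low STM and KNAT1 levels of WT 1 have in its high light-harvesting levels was not tested. In RNA from whole above-ground parts, fewer cells of a type and less RNA per cell cannot be told apart.

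**Figure D2:**
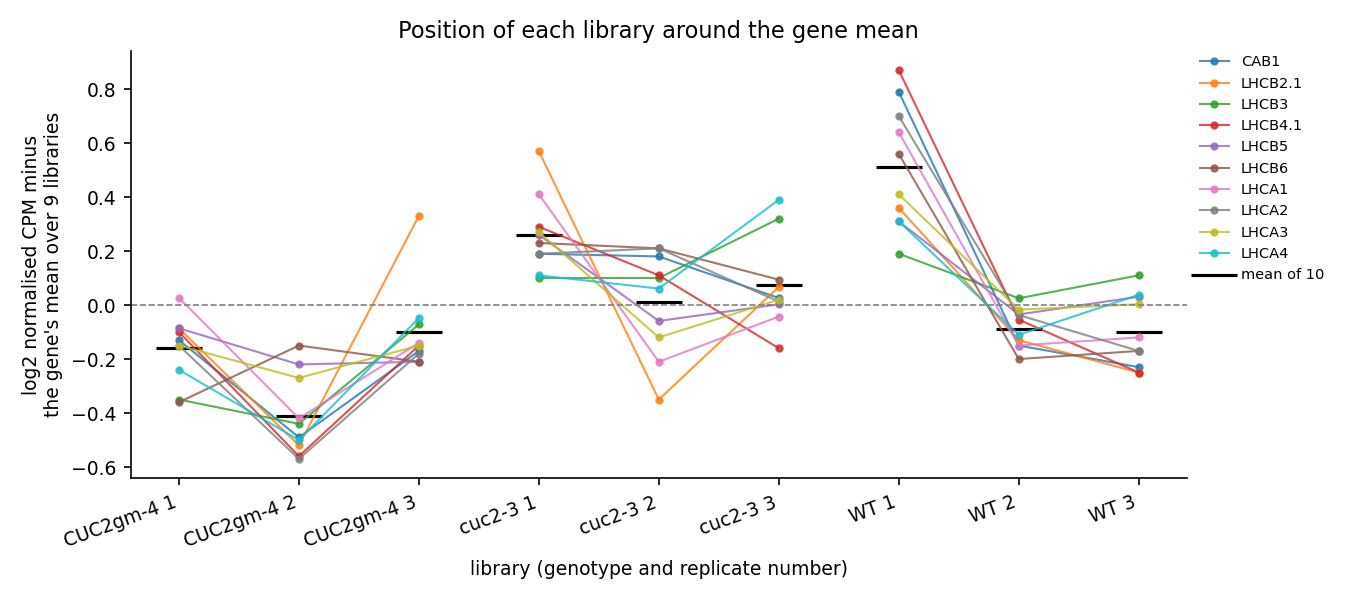
Each library's log2 normalised CPM minus the gene's mean over all 9 libraries, for the 10 genes (coloured lines within a genotype) and their mean (black bars). WT 1 has the highest mean (0.51) and CUC2gm-4 2 the lowest (-0.41), while WT 2 (-0.087) and WT 3 (-0.10) lie near CUC2gm-4 1 and 3.

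The first comparison asked how the libraries labelled CUC2gm-4 differed from WT. The level was lower in CUC2gm-4 for all 10 genes, with log2 fold changes from -0.54 for LHCB4.1 to -0.064 for LHCB2.1 and a median of -0.34, although LHCB2.1 turned to 0.041 when library totals replaced the TMM factors (median -0.24; the median of all genes was then 0.083). Over all 18291 genes tested the median was -0.0025 and 50.4% of values were negative. CAB1 was at -0.47 (95% interval -1.05 to 0.11), LHCA2 at -0.51 (-1.03 to 0.010) and LHCB3 at -0.39 (-0.74 to -0.032). In edgeR's quasi-likelihood test after Benjamini-Hochberg adjustment 0 of the 10 genes passed, with adjusted p from 0.756 to 0.984. That threshold was passed by 0.0164% of all genes (3 of 18291). With the replicate number as a block 0 members passed, with adjusted p from 0.347 to 0.929, against 0.191% of all genes (35 of 18291). DESeq2 and limma-voom also called 0 members. An unadjusted p below 0.05 was found for 1 gene, LHCB3 (6.48% of all genes), and for 5 with the block (10.9% of all genes). The 3 CUC2gm-4 libraries lay below the 3 WT libraries without overlap for LHCB3, LHCB5 and LHCA3, 3 of 10, as they did for 5.74% of all genes, and lay above WT without overlap for 0 of 10 (5.87% of all genes). Without WT 1 the median was -0.15, CAB1 was at -0.077, LHCB4.1 at -0.12, LHCA2 at -0.20, LHCB6 at -0.060, LHCA1 at -0.040 and LHCB2.1 at 0.13, with 9 of 10 values negative. LHCB3, with the smallest excess in WT 1, was at -0.36 without it. LHCB2.1 was also positive without CUC2gm-4 2, at 0.12.

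In cuc2-3 against WT the genes showed no common direction. Log2 fold changes ran from -0.18 for LHCB4.1 to 0.13 for LHCB2.1, 6 negative and 4 positive, with a median of -0.058 beside -0.0077 over all genes, of which 51.7% were negative. LHCB3 was at 0.068 (95% interval -0.29 to 0.42), LHCA4 at 0.11 (-0.30 to 0.52) and CAB1 at -0.083 (-0.66 to 0.49), so differences of either sign within these bounds remain possible. By the edgeR quasi-likelihood test, adjusted by Benjamini-Hochberg 0 members passed (all adjusted p = 1.0), against 0.0219% of all genes (4 of 18291), and 0 had an unadjusted p below 0.05 (1.96% of all genes). DESeq2 and limma-voom called 0 members as well. The groups overlapped for all 10 genes; among all genes 2.65% lay apart below WT and 2.87% above. The direction rested on single libraries. Without WT 1 all 10 values were positive, from 0.062 to 0.35, with a median of 0.22, and CAB1 was at 0.31 and LHCB6 at 0.35. Without cuc2-3 2 the median was 0.028 with 7 positive, and without cuc2-3 1 it was -0.14.

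Set against cuc2-3, the libraries labelled CUC2gm-4 again had the lower level for all 10 genes. The log2 fold changes ran from -0.45 for LHCB3 and LHCA4 to -0.19 for LHCB2.1, with a median of -0.37 beside 0.00044 over all genes, of which 49.9% were negative. LHCB3 was at -0.45 (95% interval -0.81 to -0.10) and LHCA4 at -0.45 (-0.86 to -0.038). CAB1 was at -0.39 (-0.96 to 0.19). All adjusted p were 1.0 in edgeR's quasi-likelihood test after Benjamini-Hochberg adjustment, so 0 members passed, against 0.0164% of all genes (3 of 18291). With the block 0 passed, at adjusted p from 0.514 to 0.923, against 0.0383% of all genes (7 of 18291), and DESeq2 and limma-voom called 0. An unadjusted p below 0.05 was found for LHCB3 and LHCA4 (3.73% of all genes) and for 3 genes with the block (7.39% of all genes). In normalised CPM the groups did not overlap for 7 of 10 genes, all but LHCB2.1, LHCB4.1 and LHCA1. In that direction 5.19% of all genes lay apart, and in the other, where 0 members did, 4.82%. By library totals LHCB5 and LHCA3 overlapped as well. This comparison shares its CUC2gm-4 libraries with the first and its cuc2-3 libraries with the second, so the 3 are not independent. It holds no WT library, and without WT 1 its median was -0.37. Leaving out CUC2gm-4 2 gave a median of -0.25 with all 10 values negative, and leaving out cuc2-3 1 gave -0.30 with LHCB2.1 at 0.082.

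**Figure D3:**
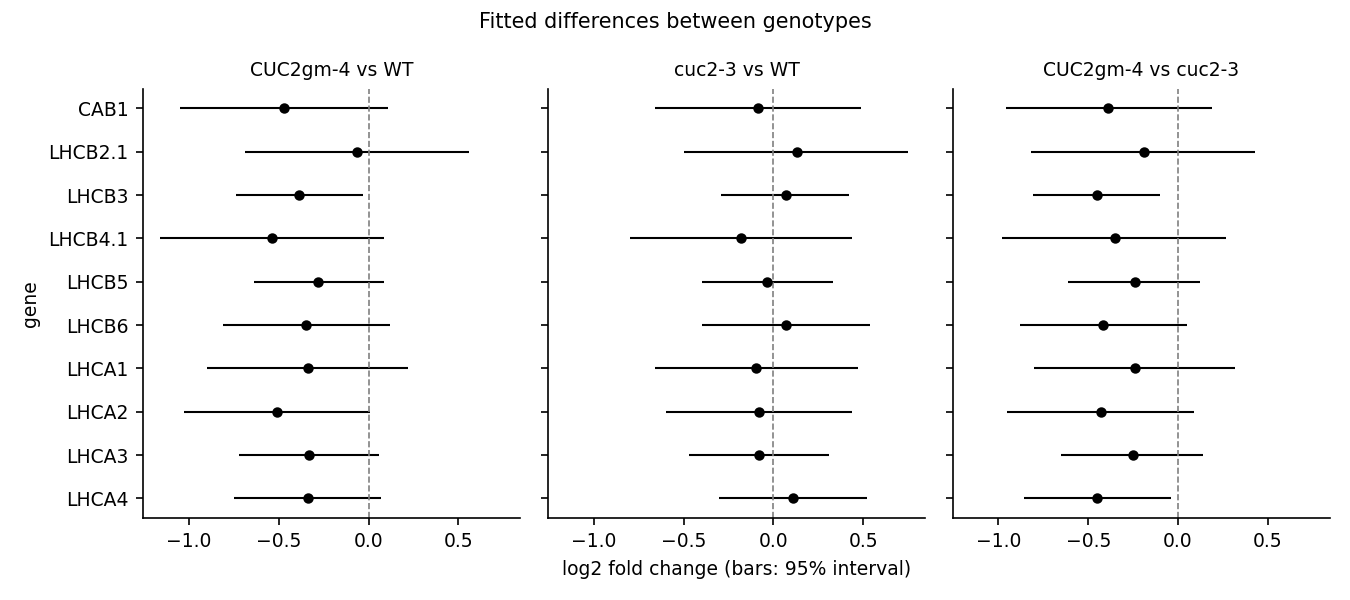
Log2 fold change (points) with 95% interval (bars) of the 10 genes in the 3 comparisons; negative values mean a lower level in the genotype named first. In this fit without the replicate block all points lie left of 0 for CUC2gm-4 vs WT and for CUC2gm-4 vs cuc2-3. Most intervals cross 0.

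**Figure D4:**
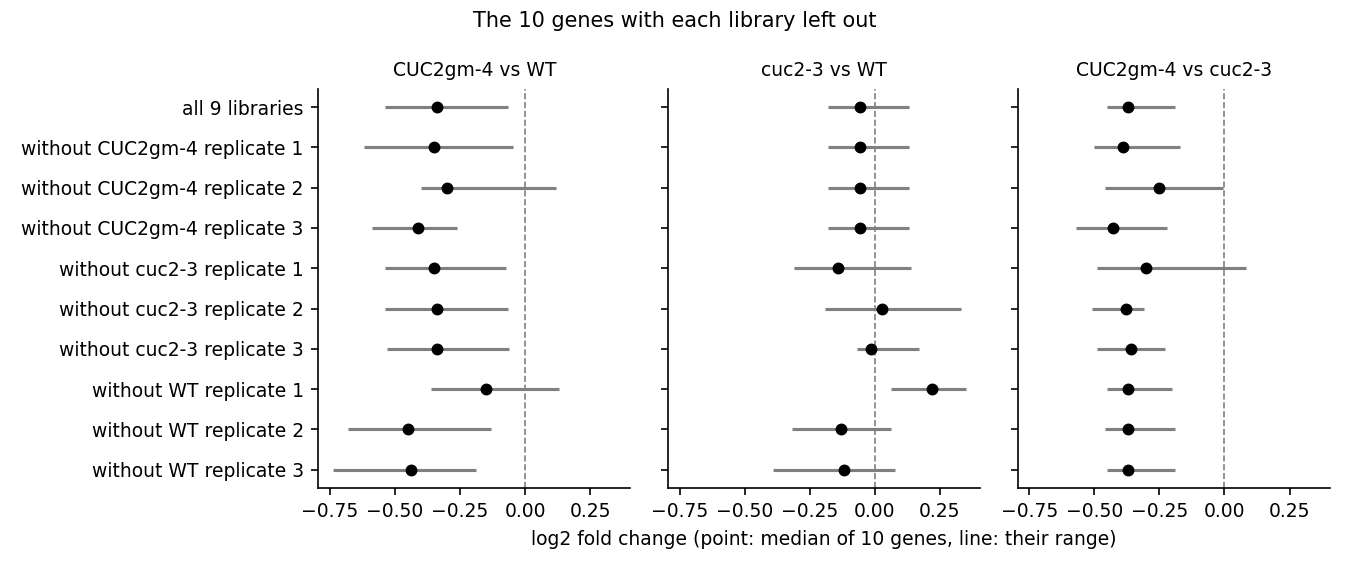
Median (points) and range (lines) of the log2 fold changes of the 10 genes with all 9 libraries and with each library left out in turn. Leaving out WT replicate 1 gives a median of -0.15 for CUC2gm-4 vs WT (-0.34 with all libraries) and of 0.22 for cuc2-3 vs WT (-0.058 with all libraries).

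Summed over the 10 genes, the messages came to 46495, 38483 and 47146 normalised CPM in CUC2gm-4, 60634, 54830 and 54333 in cuc2-3, and 79414, 48097 and 47433 in WT. Every CUC2gm-4 sum was below every cuc2-3 sum and every WT sum, although CUC2gm-4 3 and WT 3 differed little. By library totals CUC2gm-4 3, at 4.91% of its counts, lay above WT 3, at 4.89%. The mean difference in log2 sum was -0.37 for CUC2gm-4 against WT (2-sided exact permutation test p = 0.1). It was -0.37 for CUC2gm-4 against cuc2-3 (exact p = 0.1) and -0.0014 for cuc2-3 against WT (exact p = 1.0). The smallest p that 3 libraries against 3 allow is 0.1, so none of these could pass. With library totals the difference of CUC2gm-4 from WT was -0.28 (exact permutation p = 0.2). Without WT 1 it was -0.12 with the TMM factors. The balance of both antennae differed less: LHCA over LHCB was 0.385, 0.375 and 0.381 in CUC2gm-4, 0.383, 0.342 and 0.398 in cuc2-3, and 0.337, 0.384 and 0.406 in WT. The exact p was 0.900 in each of the 3 comparisons of that ratio, and WT 1, richest in CAB1 (44.0% of the member counts), had the lowest ratio.

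The remaining 11 genes of the family were mostly lower in CUC2gm-4 as well. LHCB1.1, LHCB1.2, LHCB1.4 and LHCB1.5, the other LHCB1 copies, were at -0.43, -0.31, -0.54 and -0.093 (log2 fold change, CUC2gm-4 against WT), at -0.033, 0.018, -0.16 and 0.046 in cuc2-3 against WT, and at -0.40, -0.33, -0.37 and -0.14 in CUC2gm-4 against cuc2-3. LHCB2.2 and LHCB2.3, the other LHCB2 copies, were at -0.35 and -0.28 in CUC2gm-4 against WT, and LHCB4.2 and LHCB4.3, further CP29 genes, at -0.52 and -0.40. LHCA6, a rare protein that links photosystem I to the NDH complex, was at -0.60 in CUC2gm-4 against WT and -0.66 in CUC2gm-4 against cuc2-3. LHCA5, its partner in that role, was at 0.076 and 0.12, and LHCB7, a rarely expressed relative, at 0.0096 and 0.037. LHCA5 averaged 138, LHCA6 66.3, LHCB4.3 26.7 and LHCB7 6.66 normalised CPM per kb, so the scarce genes lay on both sides. In all, 9 of 11 were negative in CUC2gm-4 against WT (median -0.35, and -0.068 without WT 1) and 0 passed the edgeR quasi-likelihood test, adjusted by Benjamini-Hochberg. With library totals 8 were negative, LHCB1.5 turning, and with RLE factors 10, LHCB7 turning. In cuc2-3 against WT 6 were negative and 5 positive. With library totals LHCB1.1 and LHCB4.2 turned, leaving 4 negative and 7 positive. With nuclear genes alone LHCB4.2 turned. The median of the 11 in cuc2-3 against WT was 0.33 without WT 1 and -0.12 without cuc2-3 1.

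Genes that work with the antenna lay on the same side. The 12 nuclear subunits of photosystem I were all negative in CUC2gm-4 against WT (median log2 fold change -0.40), from PSAE1 of the stromal ridge at -0.56 to PSAD2, the ferredoxin-docking subunit, at -0.034. The 10 nuclear subunits of photosystem II were all negative too (median -0.39), from PSBY at -0.48 to PSBP1, of the oxygen-evolving complex, at -0.092. The 4 small-subunit genes of Rubisco and RCA, its activase, had a median of -0.49, from RBCS1A at -0.61 to RCA at -0.22. PSAD2 and PSBP1 turned positive with library totals. Without WT 1 the medians of the 3 lists were -0.28, -0.16 and -0.16. In each of these lists 0 genes passed edgeR's quasi-likelihood test after Benjamini-Hochberg adjustment in any of the 3 comparisons, with or without the block. In CUC2gm-4 against cuc2-3 the medians were -0.32 for photosystem I, -0.34 for photosystem II and -0.50 for Rubisco, and without cuc2-3 1 they were -0.18, -0.19 and -0.30. In cuc2-3 against WT they were -0.11, -0.050 and 0.019, and single libraries set their signs: without WT 1 they were 0.044, 0.18 and 0.38, and without cuc2-3 1 they were -0.21, -0.20 and -0.19.

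The 9 LHC-like proteins, relatives mostly linked to photoprotection, had 8 negative values in CUC2gm-4 against WT (median -0.40, and -0.16 without WT 1). OHP2, needed to assemble photosystem II, was at -0.58, PSBS, which triggers the release of excess energy as heat, at -0.40, and SEP2 at 0.47. Among 16 genes of chlorophyll synthesis 12 were negative (median -0.23, and -0.023 without WT 1), with PORA, a protochlorophyllide reductase, at -0.66 and CHLH, the large subunit of magnesium chelatase, at 0.25. CAO, which makes chlorophyll b, the pigment that light-harvesting proteins need to be stable, was at 0.17. All 16 were negative in CUC2gm-4 against cuc2-3 (median -0.16). The 5 genes of import and insertion were negative (median -0.24, and -0.036 without WT 1), from cpSRP43, the chaperone of light-harvesting proteins in the stroma, at -0.39 to cpFTSY, the receptor of its complex, at -0.085. The 4 kinases and phosphatases of thylakoid proteins had a median of -0.17 (-0.34 without CUC2gm-4 1, -0.052 without CUC2gm-4 2 and -0.13 without WT 1). The phosphatase PBCP was at -0.54 and the kinase STN8 at -0.031. With library totals STN7, STN8, cpFTSY, ELIP1, CHLM and CHLI2 turned positive in CUC2gm-4 against WT, and GUN4 and STN8 in CUC2gm-4 against cuc2-3. None of these genes passed the edgeR quasi-likelihood test, adjusted by Benjamini-Hochberg, with or without the block.

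Regulators of light-harvesting genes did not pass either. GLK1 and GLK2, transcription factors that activate antenna and chlorophyll genes, were at -0.57 and -0.30 in CUC2gm-4 against WT, at -0.28 and 0.22 in cuc2-3 against WT, and at -0.28 and -0.52 in CUC2gm-4 against cuc2-3. CGA1, a GATA factor that promotes chloroplast development, was at -0.89 in CUC2gm-4 against WT. HY5, a bZIP factor of the light response, was at 0.39, opposite in sign to the antenna genes. The median of the 6 was -0.43, and -0.053 without WT 1. GUN1, of plastid-to-nucleus signalling, turned positive with library totals in CUC2gm-4 against WT and against cuc2-3. The plastid-encoded partners went the other way in CUC2gm-4 against WT. All 12 plastid photosynthesis genes were positive there (median 2.59), from atpB at 0.67 to psaA at 2.91. All 12 were also positive in cuc2-3 against WT (median 3.04, and 1.75 without cuc2-3 3). In CUC2gm-4 against cuc2-3, 11 were negative and 1 positive. The median of that comparison was -0.72, -0.093 with the block and 0.98 without cuc2-3 3. In edgeR's quasi-likelihood test after Benjamini-Hochberg adjustment 0 of these 12 passed in any comparison without the block. With it 4 rose in CUC2gm-4 against WT, psbA (adjusted p = 0.0200), petD (adjusted p = 0.0299), rbcL and petA (both adjusted p = 0.0344). Plastid reads were 0.110% to 0.398% of a library, after a selection for messenger RNA.

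**Figure D5:**
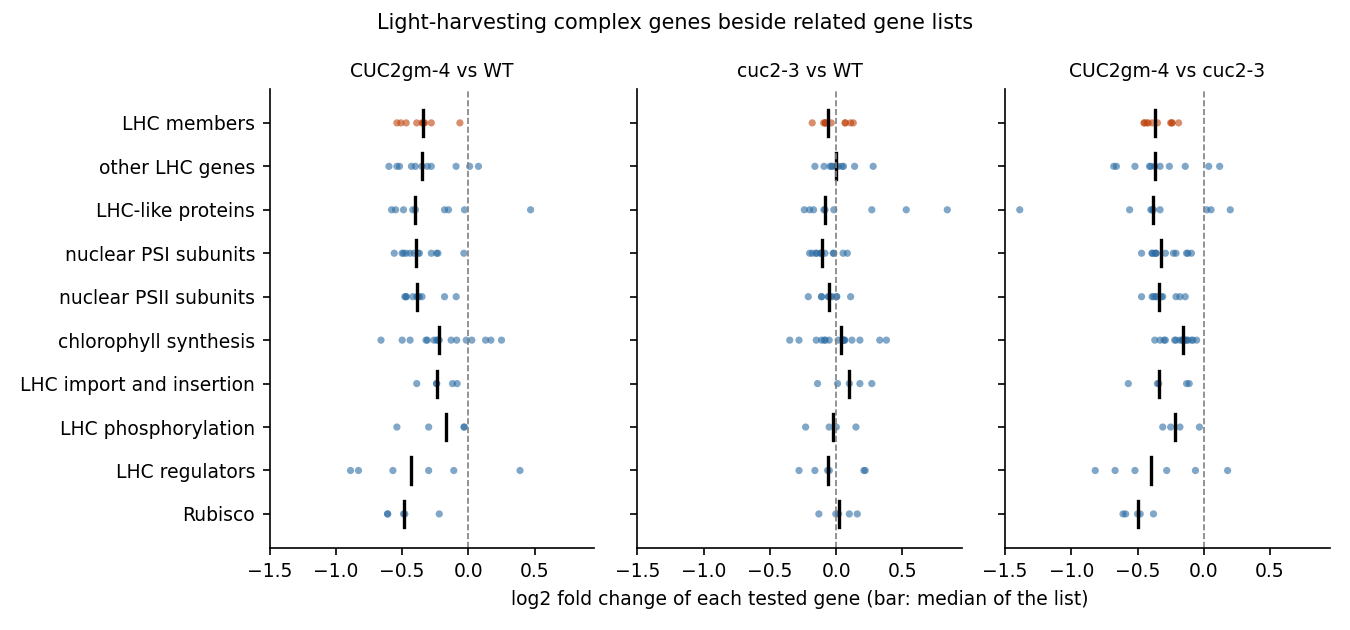
Log2 fold change of every tested gene (points) of the light-harvesting genes and of related nuclear lists, with the list median (black bars), in the 3 comparisons. The medians of all 10 lists lie left of 0 for CUC2gm-4 vs WT and for CUC2gm-4 vs cuc2-3, and near 0 for cuc2-3 vs WT.

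Markers of other cell types were measured in the same libraries, and 0 of 9 guard cell, phloem and epidermis markers passed the threshold in any comparison. The 3 guard cell markers summed to 12.5 to 15.5 normalised CPM in CUC2gm-4, 16.2 to 21.7 in cuc2-3 and 16.1 to 26.0 in WT, with none at 0. The 3 phloem markers summed to 72.2 to 89.3 in CUC2gm-4, 88.3 to 117 in cuc2-3 and 63.8 to 142 in WT, and 3 epidermis markers to 883 to 1745 in CUC2gm-4, 1013 to 1415 in cuc2-3 and 1007 to 1618 in WT, again with none at 0. The median log2 fold change in CUC2gm-4 against WT was -0.58 for the guard cell markers, -0.39 for the phloem markers and 0.046 for the epidermis markers. Without WT 1 these medians were -0.36, 0.13 and 0.32. The phloem and guard cell sums, like CAB1, were highest in WT 1, and the epidermis sum in CUC2gm-4 1. The part of these cell types in the levels of the light-harvesting genes was not tested.

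The replicate numbers, shared by the genotypes, carried a difference of their own. A clock index (the mean log2 level of morning genes minus that of evening genes) was -5.54, -5.27 and -1.38 in CUC2gm-4 1 to 3, -3.50, -5.92 and -1.93 in cuc2-3 1 to 3, and -5.75, -4.97 and -2.58 in WT 1 to 3, so the third library had the highest index in every genotype. In cuc2-3 the first library lay nearer to the third than to the second. CCA1, a morning clock factor first described as binding the promoter of an LHCB1 gene, had 2.01, 1.69 and 11.2 normalised CPM in CUC2gm-4, 4.91, 2.14 and 8.91 in cuc2-3, and 2.68, 2.12 and 3.63 in WT. LHY, its close relative, was likewise highest in the third library of every genotype. In CUC2gm-4 against WT the morning genes ran from LHY at 1.26 to RVE1 at -0.63 and the evening genes from TOC1 at 0.11 to ELF4 at -0.40, and 0 of these 7 passed. Tested across replicate numbers with genotype in the model, 4.36% of all genes passed the edgeR quasi-likelihood test, adjusted by Benjamini-Hochberg (797 of 18291) and 0 of the 10 members did. LHCA1 came closest (adjusted p = 0.0603), at -0.63 in replicate 2 and -0.46 in replicate 3 relative to replicate 1 (log2). LHCB3 and LHCA4 were the only members positive in replicate 3 relative to replicate 1, at 0.14 and 0.068.

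LHCB2.3, outside the 10, was the only light-harvesting gene of 21 past the threshold for replicate number (adjusted p = 0.0293 in edgeR's quasi-likelihood test after Benjamini-Hochberg adjustment). Its counts were 13627, 7512 and 26663 in CUC2gm-4 1 to 3, 20788, 11741 and 29991 in cuc2-3 1 to 3, and 14052, 10040 and 23674 in WT 1 to 3, so the order of the 3 numbers was the same in every genotype. It lay 1.04 higher in replicate 3 than in replicate 2 and 0.46 higher than in replicate 1 (log2). The call ended without CUC2gm-4 1 (adjusted p = 0.0587), CUC2gm-4 2 (0.0918), cuc2-3 3 (0.0595) or WT 2 (0.0748), in a range from 2.4e-07 with no CPM minimum to 0.167 without replicate 3 of every genotype. LHCB2.3 shares 595 bases with AT3G27700 on the opposite strand, and the strand setting of the counting was not given in the sources used here. With the clock index as a covariate the members' median was -0.35 for CUC2gm-4 against WT, -0.027 for cuc2-3 against WT and -0.38 for CUC2gm-4 against cuc2-3.

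Pairs of members differed in how closely they moved together. The measure was the root mean square difference of their centred log2 levels over the 9 libraries, which share depth and scaling, so it is a description without a test. LHCB5 and LHCA3 were closest (0.0524), then CAB1 and LHCA2 (0.0614), and LHCB3 and LHCA4 (0.0825). These 3 pairs each joined an antenna gene of photosystem II with an antenna gene of photosystem I. The next pair, CAB1 and LHCB4.1 (0.0897), lay within photosystem II. Mixed pairs are common in a list of both kinds, so no pattern is drawn from this. LHCB2.1 and LHCB6 were farthest apart (0.332). Against the mean of the other 9, LHCA3 was nearest (0.0997) and LHCB2.1 farthest (0.258). Of all other genes tested, PSBS was nearest to the mean of the 10 (0.0581), followed by AT5G12470 (0.0730), AT1G53560 (0.0746), GS2, the chloroplast glutamine synthetase (0.0807), and FAD5, a chloroplast fatty acid desaturase (0.0838). PSBS had 1054, 870 and 1193 normalised CPM in CUC2gm-4, 1472, 1292 and 1296 in cuc2-3, and 1693, 1236 and 1179 in WT. By normalised CPM its CUC2gm-4 libraries lay below all of cuc2-3, as in 7 of the 10 members. WT 1 was its highest library, as in 7 members. PSBS was picked for its nearness over these same 9 libraries, so this likeness follows from the choice and is no further evidence.

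The promoters of the members were searched because their messages varied together. The 250 bases before each gene start in TAIR10.1 were read for 27443 genes, on both strands, for the G-box CACGTG, known as a site of HY5 and related factors, the I-box GATAAG, bound by GATA factors, CCAATC, a motif linked to GLK factors, the CCA1 site AAAAATCT or AACAATCT, and the evening element AAAATATCT. None of these motifs contains another. CCAATC was present in 6 of 10 members (CAB1, LHCB2.1, LHCB4.1, LHCA1, LHCA3 and LHCA4) and in 10.2% of all promoters. The G-box was present in 3 (LHCB4.1, LHCB6 and LHCA4) and in 6.49% of all, the I-box in 3 (LHCB2.1, LHCB6 and LHCA1) and in 12.3% of all. Among the 10 members the CCA1 site was found in LHCA4 alone (8.38% of all) and the evening element in 0 (2.36% of all). Of the 11 other light-harvesting genes, 4 held CCAATC, 2 the G-box and 1 the I-box. The CCA1 site was in 2 of those 11 (LHCB1.1 and LHCB1.4) and the evening element in 1 (LHCA5). LHCB3, LHCB5 and LHCA2 held no match to these letters in this window. The TAIR10.1 transcripts can be longer than the counted models (CAB1 1230 against 1044 bases), and where they differ was not examined. Bases inside the annotated gene were not searched, so a site missing here may lie there or farther upstream. Stretches of 120 bases are shown for the member with the highest level and for 4 members whose stretch holds more than a single kind of match, 5′ to 3′ along the gene with matches in capitals (GATTGG and AGATTTTT are reverse strand matches), from RefSeq's TAIR10.1.
CAB1 (chr1:10477734-10477853, plus strand): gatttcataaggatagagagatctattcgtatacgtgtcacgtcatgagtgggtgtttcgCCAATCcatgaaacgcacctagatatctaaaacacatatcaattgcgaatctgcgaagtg
LHCB4.1 (chr5:208717-208836, plus strand): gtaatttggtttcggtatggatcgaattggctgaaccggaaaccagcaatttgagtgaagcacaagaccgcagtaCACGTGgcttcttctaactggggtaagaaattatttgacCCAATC
LHCB6 (chr1:5447926-5448045, minus strand): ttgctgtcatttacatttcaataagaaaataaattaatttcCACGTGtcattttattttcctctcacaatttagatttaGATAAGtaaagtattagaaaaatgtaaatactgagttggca
LHCA1 (chr3:20341229-20341348, minus strand): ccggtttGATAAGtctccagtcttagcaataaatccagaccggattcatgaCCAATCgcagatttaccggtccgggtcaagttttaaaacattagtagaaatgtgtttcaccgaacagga
LHCA4 (chr3:17495096-17495215, minus strand): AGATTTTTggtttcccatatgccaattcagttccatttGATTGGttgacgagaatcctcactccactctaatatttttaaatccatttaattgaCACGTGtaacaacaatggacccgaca
In CAB1 the CCAATC match starts 91 bases before the gene start. The LHCB4.1 stretch holds a G-box at 74 and CCAATC at 35 bases, LHCB6 a G-box at 124 and an I-box at 86, and LHCA1 an I-box at 165 and CCAATC at 121. LHCA4, with the CCA1 site at 182, a CCAATC match at 144 and a G-box at 88 bases, and LHCB3, with no match, were the members highest in cuc2-3 3. A match is no evidence of binding, and no binding data were analysed here.

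Overlaps with genes on the opposite strand touch 4 members: CAB1 shares 108 bases with AT1G29940, LHCB3 186 with AT5G54280, LHCA4 53 with AT3G47460, and LHCB6 358 with AT1G05207 and 103 with AT1G15810. Their levels include reads of those genes if counting ignored strand.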

How the data were processed

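Each library has a deposited file of whole-number read counts per gene model, made with sam2pkm per the file headers after reads with several best placements were removed (1.92% to 2.61% of mapped reads). The libraries are stranded and single-end, sized at 230 bp, for the Ion Torrent Proton per the labels' protocols, and TAIR10 is named as the build in the submitters' processing notes. The aligner and its settings, trimming and strand use: not given in the sources used here. Positions, names and sequences come from TAIR10.1 by gene identifier.

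Genes reaching 1 CPM in 3 or more libraries were kept (18291, of 33602), and all 10 members passed on their own. edgeR 4.0.16 (R 4.3.3) with TMM factors fitted genotype to all 9 libraries, with a quasi-likelihood test and Benjamini-Hochberg adjustment at 0.05. Normalised CPM and levels per kb use the deposited model lengths. Centred profiles use a pseudocount of 0.5. DESeq2 1.42.0 and limma 3.58.1 were alternatives. Sequences were read with Biopython 1.88. The procedure was tested on simulated data.

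Libraries with the same replicate number deviated together (r from 0.200 to 0.599 in 9 pairs, against -0.488 to 0.210 in 18 others), so the numbers pair the libraries. A blocked fit (replicate number as block) is printed where it changes a result. What the numbers mean is unlabelled. The members and gene lists were chosen with earlier results of these data known. Named are all light-harvesting genes, the highest and lowest gene of each pathway list in CUC2gm-4 against WT, genes past the threshold, a few regulators and clock genes, and the 5 nearest genes. LHCB2.3 is described at length because it passed.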

Additional observations from a re-analysis of the deposited data

How the results depend on the processing

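None of the 10 members passed the threshold between genotypes in any of the 20 alternatives. Counts of all genes past it did move. For CUC2gm-4 against WT 3 genes became 35 with the replicate block, 9 with no CPM minimum, 81 in DESeq2, 6 from these 2 genotypes alone and 6 with a clock covariate, and 2 to 20 with libraries left out. For cuc2-3 against WT 4 became 14 in DESeq2 and 1 to 8 with libraries left out, and for CUC2gm-4 against cuc2-3 3 became 7 with the replicate block, 25 in DESeq2 and 1 to 4 with libraries left out. For replicate number 797 became 3026 with no CPM minimum, where 4 members passed, and 8 to 1261 with libraries left out, where up to 1 member passed (0 to 1). The block changed no other call. The cause of these shifts was not tested.

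Signs held for all members in CUC2gm-4 against WT except LHCB2.1 (0.041 with library totals, -0.42 to 0.14 with libraries left out). They held in CUC2gm-4 against cuc2-3 except LHCB2.1 (-0.46 to 0.11). With libraries left out, cuc2-3 against WT gave log2 fold changes of -0.27 to 0.31 for CAB1, -0.16 to 0.33 for LHCB2.1, -0.012 to 0.12 for LHCB3, -0.39 to 0.23 for LHCB4.1, -0.15 to 0.064 for LHCB5, -0.063 to 0.35 for LHCB6, -0.31 to 0.20 for LHCA1, -0.25 to 0.23 for LHCA2, -0.21 to 0.062 for LHCA3 and -0.027 to 0.24 for LHCA4. The members' median ran from -0.14 to 0.22 there, from -0.48 to -0.15 in CUC2gm-4 against WT and from -0.46 to -0.25 in CUC2gm-4 against cuc2-3.

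The summed level of cuc2-3 against WT was 0.010 with library totals, 0.0015 with nuclear genes only and 0.015 over all 21 genes, and -0.13 to 0.24 with libraries left out. The LHCA to LHCB ratio (log2) of CUC2gm-4 against WT was 0.022, -0.013 over all 21 genes, and -0.063 to 0.080 with libraries left out. That of cuc2-3 against WT ran from -0.10 to 0.061, and that of CUC2gm-4 against cuc2-3 from -0.039 to 0.071. Leaving out replicate 1 or 3 of every genotype was chosen after seeing the data. The lowest count of a member was 24075, with a counting error of 0.644%.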
